A study of Mus musculus with 16 samples.

Results

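The genes described here are 10 beta-catenin targets known from the hepatocytes around the central vein of the mouse liver: Glul, Lgr5, Nkd1, Axin2, Rnf43, Znrf3, Rhbg, Slc1a2, Tbx3 and Sp5. They were listed for their known role and found by symbol, by a rule that uses no measured value, and all 10 were present among the 27446 entries of the table. RNA of whole liver was sequenced in 16 libraries from wild-type C57BL/6 mice, with no further allele named for either group. The 8 emodin livers came from mice that received emodin, an anthraquinone of rhubarb, by the intragastric route at 400 mg/kg for 3 weeks, suspended in 0.5% CMC-Na (sodium carboxymethyl cellulose). The 8 vehicle livers came from mice that received the 0.5% CMC-Na by itself. Age is not given in the sources used here, and the labels leave unsaid whether every library is from a separate mouse, so p-values measure the spread between libraries.

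Hepatocytes next to the central vein receive Wnt ligands and R-spondins from the endothelium of that vein. A Wnt ligand bound to Frizzled and LRP receptors stops the destruction complex from degrading beta-catenin, which then enters the nucleus and acts through TCF/LEF factors. R-spondin, bound to LGR receptors, removes the ubiquitin ligases RNF43 and ZNRF3, which otherwise take Frizzled off the cell surface. In the liver this pathway sets apart a narrow ring of cells that make glutamine from ammonium, and several of its targets are themselves brakes on the pathway.

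Sequencing depth lay between 28.3 M and 48.2 M estimated counts per library (M, mega) and averaged 38.6 ± 6.91 M in emodin livers and 32.3 ± 3.16 M in vehicle livers (SD, n = 8 each), a difference with p = 0.035 in an exact permutation test (two-sided). Levels are therefore given in CPM, counts scaled to a common library size with TMM factors, and the part of the depth difference in the results was not tested. The tissue matched its label, since Alb, the gene of the hepatocyte product albumin, averaged 59500 CPM in emodin livers and 84400 CPM in vehicle livers. Reads of a muscle gene stood out in a pair of libraries: Ttn, the gene of the muscle protein titin, had 3359 counts in emodin 7, 10058 counts in vehicle 2 and at most 14 counts in any other liver. Whether muscle was carried over into these libraries was not tested. In whole tissue, fewer pericentral cells and less RNA per cell cannot be told apart.

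The 10 genes are all protein coding, and their spans are given on mm10 with GENCODE M21. The glutamine and transport genes are Glul (ENSMUSG00000026473, chr1:153899944-153909723, plus strand), Rhbg (ENSMUSG00000104445, chr3:88242874-88254709, minus strand) and Slc1a2 (ENSMUSG00000005089, chr2:102658659-102790784, plus strand). The receptor gene is Lgr5 (ENSMUSG00000020140, chr10:115450311-115587780, minus strand). The feedback genes are Rnf43 (ENSMUSG00000034177, chr11:87662722-87735539, plus strand), Znrf3 (ENSMUSG00000041961, chr11:5276324-5444847, minus strand), Axin2 (ENSMUSG00000000142, chr11:108920349-108950783, plus strand) and Nkd1 (ENSMUSG00000031661, chr8:88521354-88594884, plus strand). The transcription factor genes are Tbx3 (ENSMUSG00000018604, chr5:119670669-119684724, plus strand) and Sp5 (ENSMUSG00000075304, chr2:70474923-70477729, plus strand). How the authors treated reads shared by overlapping genes is not given in the sources used here. For Rhbg, 61.4% of the exon bases are shared with Gm38392 on the same strand, so the split between these genes is uncertain. Gm38392 had 6 counts in all livers together, which does not show whether shared reads were counted for Rhbg or left out. Glul, Axin2, Slc1a2 and Tbx3 share between 115 and 209 exon bases each with a gene on the opposite strand, which cannot be told apart where strand was not used in counting.

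TCF/LEF factors bind short sites of the kind CTTTGAT (the first motif here), CTTTGAA (the second), CTTTGTT (the third) and CTTTGTA (the fourth), and these letters were searched on both strands of RefSeq promoter windows (GRCm38.p6, 250 bases before to 50 after a start). Windows were matched for 6 of the 10 genes, 7 windows in all. Sp5 and Slc1a2 had a match, and Glul, Nkd1, Axin2 and both windows of Rnf43 had none. The windows of both genes with a match, and that of Nkd1, which fell with emodin and had none, are shown with the matches in capitals. They lie at chr2:70474673-70474972 for Sp5, chr2:102706188-102706487 for Slc1a2 and chr8:88527383-88527682 for Nkd1, all on the plus strand.
Sp5: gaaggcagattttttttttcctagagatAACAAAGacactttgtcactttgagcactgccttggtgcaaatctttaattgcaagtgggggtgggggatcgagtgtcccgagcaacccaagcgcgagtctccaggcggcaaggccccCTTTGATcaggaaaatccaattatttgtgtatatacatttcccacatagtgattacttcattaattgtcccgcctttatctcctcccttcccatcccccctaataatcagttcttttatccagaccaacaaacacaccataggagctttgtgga
Slc1a2: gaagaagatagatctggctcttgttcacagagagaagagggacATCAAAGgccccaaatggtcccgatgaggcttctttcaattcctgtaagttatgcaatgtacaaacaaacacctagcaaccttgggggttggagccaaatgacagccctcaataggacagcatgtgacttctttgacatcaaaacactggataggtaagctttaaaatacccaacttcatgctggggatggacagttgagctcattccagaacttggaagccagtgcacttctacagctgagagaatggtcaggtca
Nkd1: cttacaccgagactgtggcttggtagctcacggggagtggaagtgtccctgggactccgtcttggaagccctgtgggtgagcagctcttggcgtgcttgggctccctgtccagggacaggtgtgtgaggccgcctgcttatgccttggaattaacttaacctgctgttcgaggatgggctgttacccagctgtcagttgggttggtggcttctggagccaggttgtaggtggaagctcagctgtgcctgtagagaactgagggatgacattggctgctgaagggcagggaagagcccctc
The capitals in Sp5 are AACAAAG, the reverse complement of CTTTGTT, and CTTTGAT, and those in Slc1a2 are ATCAAAG, the reverse complement of CTTTGAT. Any of the 4 motifs was present in 16.9% of all 32851 windows of this length, and a match is a description of letters, not a binding site. The Slc1a2 and Nkd1 windows and both windows of Rnf43 lie inside the GENCODE spans of their genes, so they belong to starts downstream of the first annotated one.

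Emodin livers held less mRNA of Lgr5, Nkd1 and Znrf3, which code for an R-spondin receptor and 2 inhibitors of the pathway, and the other 7 genes did not pass the test in either direction. The calls of Nkd1 and Znrf3 were kept in all 25 alternative settings, and that of Lgr5 was lost in 15 of them. The 3 falls were moderate: emodin livers held 0.611 times the vehicle level of Lgr5, 0.743 times that of Nkd1 and 0.781 times that of Znrf3. Glul, which codes for glutamine synthetase and is the best known mark of this ring of hepatocytes, averaged 1100 ± 321 CPM in emodin livers and 1150 ± 115 CPM in vehicle livers (SD, n = 8 each). Of the 14308 entries tested by the quasi-likelihood F test of edgeR with Benjamini-Hochberg adjustment, 13.2% were called at an adjusted p under 0.05, 7.7% higher and 5.47% lower with emodin. The 10 genes gave 3 lower and 0 higher calls, and DESeq2 gave the same counts, while limma with array weights gave 2 lower, without Lgr5, and 0 higher. The same 3 genes had an unadjusted p under 0.05, as 29.7% of all tested entries did. Their median log2 fold change was -0.03, beside 0.0116 over all tested entries. For none of the 10 genes did all emodin livers lie beyond all vehicle livers, a separation that 1.03% of tested entries showed downward and 0.944% upward.

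**Figure D1:**
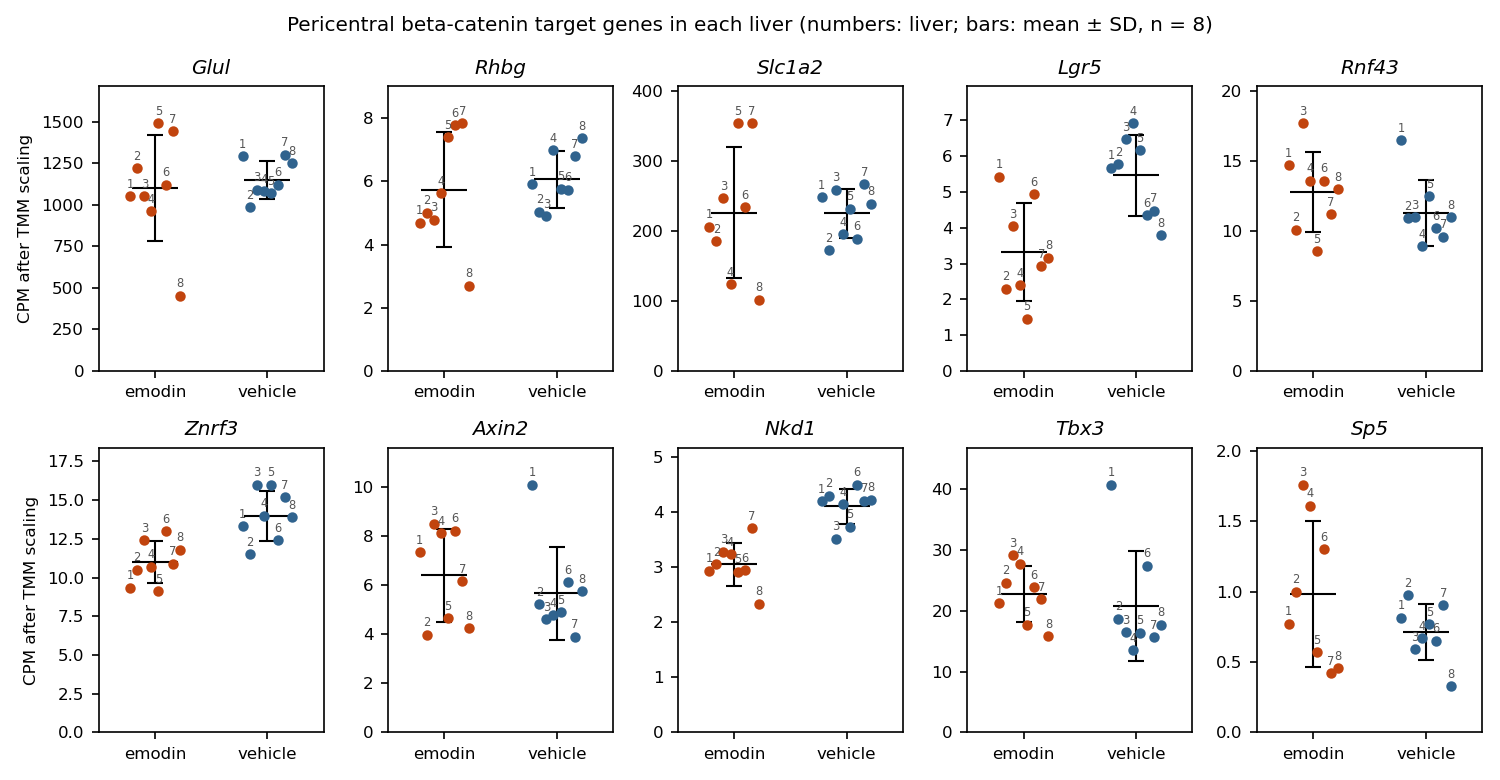
Level of each of the 10 genes in CPM after TMM scaling (y axis, from 0, one scale per gene) in 8 emodin livers (left, orange) and 8 vehicle livers (right, blue), each point a numbered liver, with the mean ± SD as bars. Lgr5, Nkd1 and Znrf3 sit lower in the emodin livers, while emodin 8 stands at 453 CPM for Glul and at 2.70 CPM for Rhbg, below the other livers.

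Per kilobase of exon, taken over all exon bases annotated for a gene, the levels of these genes spanned a wide range. Differences in level between genes were not tested, and the level of Rhbg depends on how reads in its shared exon bases were counted. Glul led with 330 CPM per kb in emodin livers and 346 CPM per kb in vehicle livers, followed by Slc1a2 with 17.2 CPM per kb in emodin livers and 17.1 CPM per kb in vehicle livers. Tbx3 had 3.43 and Rhbg 2.96 CPM per kb in emodin livers, against 3.14 CPM per kb for Tbx3 and 3.13 CPM per kb for Rhbg in vehicle livers, so these neighbours did not separate. Rnf43 and Znrf3, which code for the paired ubiquitin ligases, had 1.95 and 1.39 CPM per kb in emodin livers and 1.73 and 1.78 CPM per kb in vehicle livers, where these neighbours did not separate. Axin2 had 1.16 CPM per kb in emodin livers and 1.03 CPM per kb in vehicle livers. The lowest levels per kilobase were those of Nkd1 (0.670 CPM per kb in emodin livers, 0.901 in vehicle livers), Lgr5 (0.325 in emodin livers, 0.532 in vehicle livers) and Sp5 (0.469 in emodin livers, 0.339 in vehicle livers).

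Lgr5 codes for a receptor that binds R-spondins and raises the Wnt signal. Its level was 1.46 CPM in the lowest, 3.04 in the median and 5.43 CPM in the highest emodin liver, against 3.80, 5.73 and 6.92 CPM in the lowest, median and highest vehicle livers. The groups overlapped, with 5 of 8 emodin livers below every vehicle liver and all 8 below the vehicle mean; emodin 1 (5.43 CPM) and emodin 6 (4.94 CPM) were the highest of their group and emodin 5 the lowest. Lgr5 fell by 0.71 ± 0.23 on the log2 scale (SE; edgeR adjusted p = 0.0454), with means of 3.33 ± 1.37 CPM in emodin livers and 5.46 ± 1.12 CPM in vehicle livers. The estimate rested on 41 to 221 counts per liver. The call was close to the threshold and was lost in 15 of 25 alternative settings. Over all 25, the log2 fold change ranged from -0.85 to -0.53 and the adjusted p from 0.017 to 0.0969. The lost calls include those without emodin 2, 4, 5, 7 or 8 and those without vehicle 1, 2, 3, 4, 5 or 7. Without both livers with titin reads, emodin 7 and vehicle 2, the log2 fold change was -0.67 (adjusted p = 0.0858).

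Nkd1 codes for naked cuticle 1, a protein that binds Dishevelled and dampens the Wnt signal. Emodin livers had 2.34 CPM at the lowest, 3.0 at the median and 3.71 CPM at the highest, against 3.52, 4.21 and 4.5 CPM in vehicle livers. Only emodin 7 lay inside the vehicle range, and the other 7 emodin livers were below every vehicle liver. Nkd1 fell by 0.43 ± 0.11 on the log2 scale (SE; edgeR adjusted p = 0.0145), with means of 3.05 ± 0.391 CPM in emodin livers and 4.11 ± 0.317 CPM in vehicle livers, from 82 to 155 counts per liver. The call was kept in all 25 alternatives, at log2 fold changes between -0.47 and -0.38.

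Znrf3 codes for a transmembrane ubiquitin ligase that clears Frizzled receptors. Its lowest, median and highest emodin livers had 9.14, 10.8 and 13.0 CPM, against 11.5, 14 and 16 CPM in vehicle livers. The highest emodin livers, 3, 6 and 8, reached into the lower part of the vehicle range, and 5 of 8 emodin livers were below every vehicle liver. Znrf3 fell by 0.36 ± 0.09 on the log2 scale (SE; edgeR adjusted p = 0.0161), with means of 11 ± 1.35 CPM in emodin livers and 14 ± 1.62 CPM in vehicle livers. With 257 to 580 counts per liver it was better counted than Lgr5 or Nkd1, and its call was also kept in all 25 alternatives, between -0.39 and -0.32.

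Rnf43, which codes for the ubiquitin ligase most closely related to ZNRF3, had 8.54 CPM in the lowest, 13.3 in the median and 17.7 CPM in the highest emodin liver, against 8.93, 11.0 and 16.5 CPM in vehicle livers. The groups overlapped over nearly their whole range. Its log2 fold change was 0.18 ± 0.14 (SE; edgeR adjusted p = 0.43). Axin2, a scaffold of the destruction complex that is induced by the pathway it inhibits, had 3.98, 6.76 and 8.51 CPM in the lowest, median and highest emodin livers and 3.91, 5.07 and 10.1 CPM in vehicle livers. No emodin liver lay outside the vehicle range, whose top was set by vehicle 1. The log2 fold change of Axin2 was 0.17 ± 0.2 (SE; edgeR adjusted p = 0.601), and without vehicle 1 it was 0.35 (adjusted p = 0.214).

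None of the 3 metabolic genes of the ring passed the test, and each had a larger SD among emodin livers than among vehicle livers, a difference in spread that was not tested. Glul had 453 CPM in the lowest, 1090 in the median and 1490 CPM in the highest emodin liver, against 986, 1110 and 1300 CPM in vehicle livers. Emodin 5 and emodin 7 were above every vehicle liver, and emodin 4 and emodin 8 were below every one. The log2 fold change of Glul was -0.07 ± 0.17 (SE; edgeR adjusted p = 0.834), and it became 0.05 without emodin 8.

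Slc1a2, which codes for the glutamate transporter GLT-1, had 102, 220 and 354 CPM in the lowest, median and highest emodin livers and 173, 235 and 267 CPM in vehicle livers. The same emodin livers stood out as for Glul: 5 and 7, at 354 CPM each, were above every vehicle liver, and 4 and 8, at 124 and 102 CPM, were below. Its log2 fold change was 0.0 ± 0.22 (SE; edgeR adjusted p = 0.994). Rhbg, which codes for an ammonium transporter of the Rhesus family, had 2.70, 5.32 and 7.84 CPM in the lowest, median and highest emodin livers and 4.90, 5.85 and 7.37 CPM in vehicle livers. Emodin 5, 6 and 7 were above every vehicle liver and emodin 1, 3 and 8 below, and the log2 fold change was -0.09 ± 0.18 (SE; edgeR adjusted p = 0.79).

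Tbx3, a T-box transcription factor known mainly as a repressor, had 15.8, 22.9 and 29.1 CPM in the lowest, median and highest emodin livers and 13.5, 17.1 and 40.7 CPM in vehicle livers. All emodin livers lay within the vehicle range, which vehicle 1 extended upward. Its log2 fold change was 0.13 ± 0.21 (SE; edgeR adjusted p = 0.718) with vehicle 1 and 0.34 (adjusted p = 0.148) without it. Sp5, a zinc finger factor induced by Wnt signals, had 0.419, 0.887 and 1.76 CPM in the lowest, median and highest emodin livers and 0.328, 0.719 and 0.974 CPM in vehicle livers. Emodin 2, 3, 4 and 6 were above every vehicle liver, while emodin 5, 7 and 8 were in the lower part of the vehicle range. With only 12 to 76 counts per liver, its log2 fold change of 0.47 ± 0.31 (SE) did not pass the test (edgeR adjusted p = 0.329), and the emodin livers had a coefficient of variation of 52.8%.

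Whether the 10 genes moved differently from each other was asked through the log2 ratio of each pair within a library. Scaling between libraries enters this ratio only through the prior count of 2 added before the logarithm. Of 45 pairs, the ratio of Lgr5 to Rnf43 passed after Benjamini-Hochberg adjustment over the pairs. It was -2.0 ± 0.41 in emodin livers and -1.05 ± 0.39 in vehicle livers (SD, n = 8 each), a difference of -0.95 (p = 0.000932 and adjusted p = 0.0419 by exact permutation, two-sided), with 6 of 8 emodin livers below every vehicle liver. The difference uses the Lgr5 values already described, so it is not separate evidence of the Lgr5 fall. The ratio of Znrf3 to Rnf43, the related ligases, was -0.2 ± 0.27 in emodin livers and 0.32 ± 0.32 in vehicle livers. That difference of -0.52 missed the threshold after adjustment (exact permutation p = 0.00466, adjusted p = 0.0545).

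The genes were also compared within each group of 8 livers by the correlation of their log2 CPM, 90 relations in all, and 0 passed after adjustment. In emodin livers 33 of 45 pairs were positive with a median Pearson r of 0.32, and in vehicle livers 24 of 45 with a median of 0.06. Glul and Slc1a2 had r = 0.85 and rho = 0.79 in emodin livers (exact permutation p = 0.00136 and 0.0279, adjusted p = 0.123 and 0.473), and r = 0.77 without the pair of livers farthest from the median of Glul. In vehicle livers the same genes had r = 0.71 and rho = 0.71 (exact permutation p = 0.0483 and 0.0576, adjusted p = 0.362 and 0.499), and r = 0.54 without the pair of livers farthest out. Glul and Rhbg had r = 0.88 in emodin livers (exact permutation p = 0.00804, adjusted p = 0.181) but rho = 0.69 (p = 0.0694, adjusted p = 0.499). Its r of 0.56 without the 2 farthest livers shows that the value rested in part on those livers. Tbx3 and Sp5 had r = 0.86 and rho = 0.83 in emodin livers (exact permutation p = 0.00682 and 0.0154, adjusted p = 0.181 and 0.461), and r = 0.85 without the 2 farthest livers. In vehicle livers Tbx3 and Sp5 had r = 0.14 and rho = 0.02 (exact permutation p = 0.696 and 0.977, adjusted p = 0.914 and 1.0), and r = -0.07 without the 2 farthest livers. Axin2 and Tbx3 had r = 0.92 and rho = 0.86 in vehicle livers (exact permutation p = 0.00362 and 0.0107, adjusted p = 0.163 and 0.461), and r = 0.82 without the 2 farthest livers. In emodin livers the same pair had r = 0.66 and rho = 0.57 (exact permutation p = 0.0804 and 0.151, adjusted p = 0.452 and 0.68), and r = 0.88 without the 2 farthest livers.

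**Figure D2:**
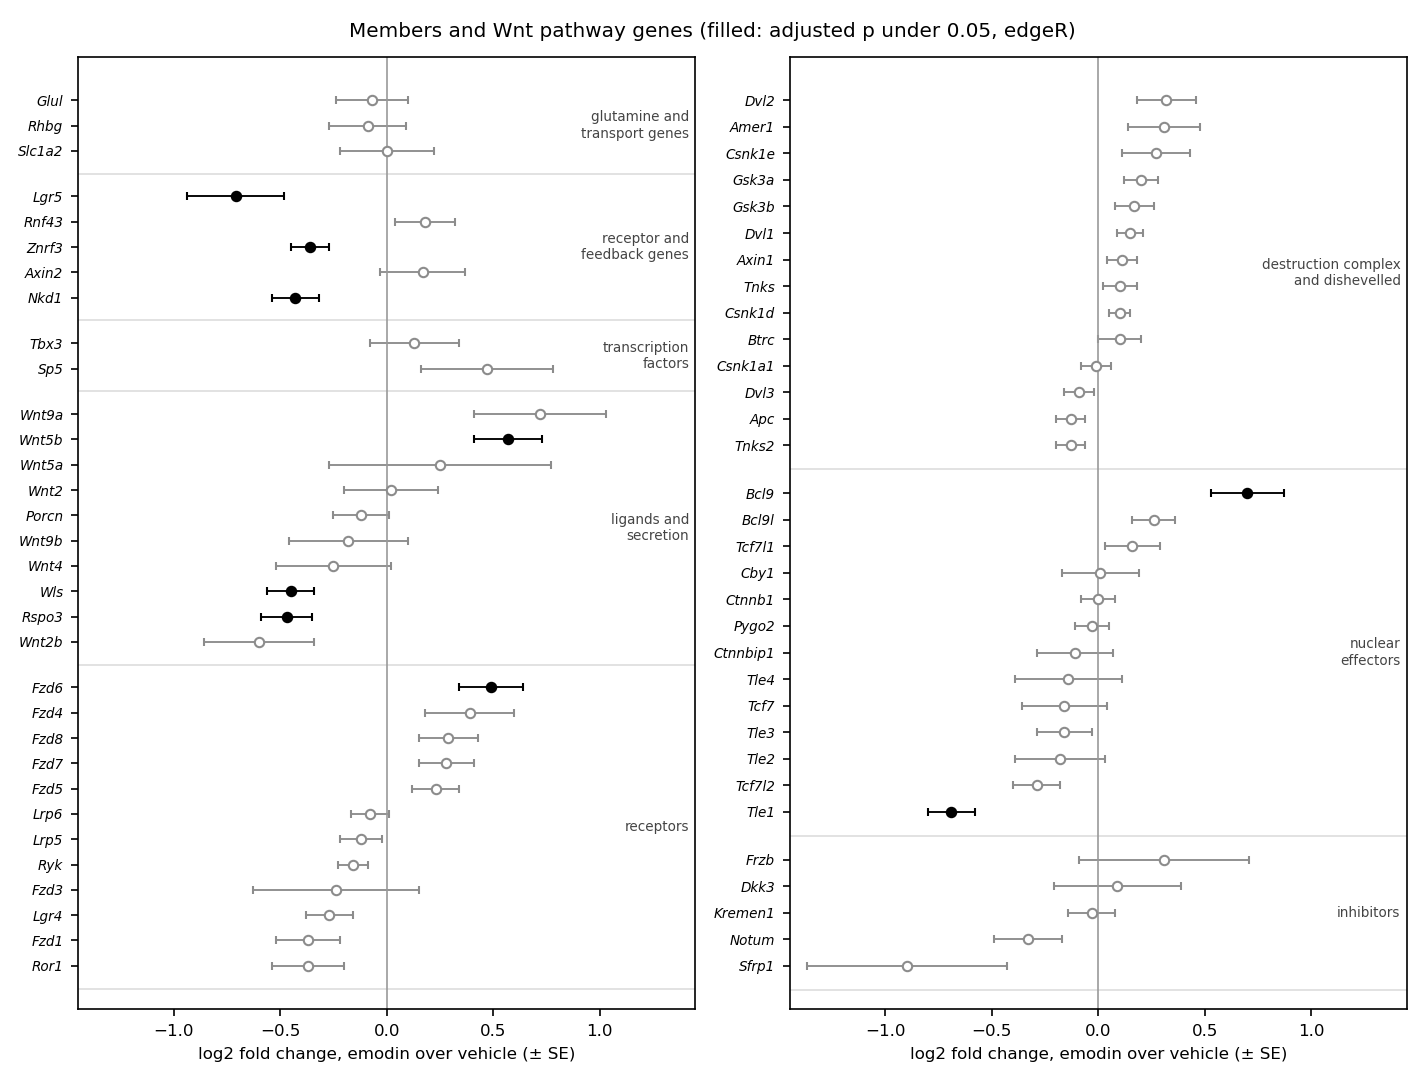
Log2 fold change, emodin over vehicle, with its SE (x axis) for the 10 genes and the tested genes of the Wnt pathway, in blocks by role; filled points have an edgeR adjusted p under 0.05. Lgr5 (-0.71), Nkd1 (-0.43) and Znrf3 (-0.36) are the filled points among the 10 genes, and Rspo3, Wls, Wnt5b, Fzd6, Bcl9 and Tle1 among the pathway genes.

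The rest of the pathway was followed through lists of ligands, receptors, the destruction complex, nuclear factors and inhibitors, 89 genes in all. Of these, 54 could be tested, and 3 rose and 3 fell, 11.1% beside the 13.2% of all tested entries, with a median log2 fold change of -0.02. Among the 25 genes of ligands and their secretion, 10 were tested, with 1 higher, 2 lower and a median of -0.15; 6 of the 25 were at 0 in every liver. Rspo3, the R-spondin of the central vein endothelium and the ligand of LGR5, had 3.08 CPM in the lowest, 4.27 in the median and 5.45 CPM in the highest emodin liver, against 5.32, 5.68 and 7.14 CPM in vehicle livers. Of the emodin livers, 7 were below every vehicle liver, and emodin 8, at 5.45 CPM, was above vehicle 4 and vehicle 6. Rspo3 fell by 0.47 ± 0.12 on the log2 scale (SE; edgeR adjusted p = 0.0165), a call lost with total counts as scaling (adjusted p = 0.0523).

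Wls, which carries Wnt ligands to the cell surface, averaged 3.82 ± 0.498 CPM in emodin livers and 5.22 ± 0.762 CPM in vehicle livers, a fall of 0.45 on the log2 scale (edgeR adjusted p = 0.0175; lost in 2 of 25 alternatives, total counts as scaling among them). Wnt5b, a ligand mainly of the branches that do not use beta-catenin, averaged 3.96 ± 0.835 CPM in emodin livers and 2.66 ± 0.592 CPM in vehicle livers, a log2 rise of 0.57 (edgeR adjusted p = 0.0284; lost in 3 of 25 alternatives, among them those without vehicle 4 and without vehicle 8). The Wnt ligands of the central vein endothelium did not pass the test: Wnt2 averaged 2.13 CPM in emodin livers and 2.09 CPM in vehicle livers, and Wnt9b 1.03 CPM in emodin livers and 1.17 CPM in vehicle livers (edgeR adjusted p = 0.956 and 0.694). Wnt2 and Wnt9b, and Lgr4, Ctnnb1 and Tcf7l2 in what follows, were picked for their role with their values known.

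Of the 12 receptor genes tested, 1 was higher and 0 lower, with a median of -0.1. Fzd6, a Frizzled receptor, averaged 4.13 ± 0.693 CPM in emodin livers and 2.95 ± 0.669 CPM in vehicle livers, a log2 rise of 0.49 (edgeR adjusted p = 0.0394) that was lost in 14 of 25 alternatives. Lgr4, the relative of Lgr5 with the wider expression in hepatocytes, averaged 44.4 ± 8.95 CPM in emodin livers and 53.4 ± 4.47 CPM in vehicle livers (edgeR log2 fold change -0.27, adjusted p = 0.114). None of the 14 genes of the destruction complex and Dishevelled passed; those with the smallest p were Dvl1 (log2 fold change 0.15, edgeR adjusted p = 0.121) and Gsk3a (0.2, adjusted p = 0.124). Gsk3a was called by limma with array weights (log2 fold change 0.26, adjusted p = 0.0237) and by edgeR without emodin 8 (adjusted p = 0.0197). An unadjusted p under 0.05 was found for 3 of these 14 genes. Such a p was also found for 5 of the 10 ligand genes, 6 of the 12 receptor genes and 4 of the 13 nuclear genes, beside 29.7% of all tested entries.

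Of the 13 nuclear genes tested, 1 rose and 1 fell. Tle1, a co-repressor that TCF factors recruit in the absence of beta-catenin, had 23.1, 34.8 and 42.4 CPM in the lowest, median and highest emodin livers and 46.6, 56.0 and 62.5 CPM in vehicle livers. All 8 emodin livers were below every vehicle liver, a log2 fall of 0.69 ± 0.11 (SE; edgeR adjusted p = 0.00142) that was called in all 25 alternatives. Bcl9, a co-activator that binds beta-catenin, averaged 5.47 ± 1.46 CPM in emodin livers and 3.36 ± 0.588 CPM in vehicle livers, a log2 rise of 0.7 (edgeR adjusted p = 0.015; lost in 2 of 25 alternatives, array weights among them). Ctnnb1, the gene of beta-catenin itself, averaged 149 ± 18.9 CPM in emodin livers and 149 ± 9.21 CPM in vehicle livers (edgeR adjusted p = 0.996). Tcf7l2, the main TCF factor of hepatocytes, averaged 16 ± 1.58 CPM in emodin livers and 19.6 ± 3.82 CPM in vehicle livers (edgeR adjusted p = 0.0837). Of the 17 genes on the list of inhibitors 5 were tested and 0 passed, by edgeR with 0 at an unadjusted p under 0.05. Notum, on that list, averaged 20 ± 6.52 CPM in emodin livers and 25.2 ± 2.0 CPM in vehicle livers (edgeR adjusted p = 0.186).

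Markers of the other cell types of the liver were set beside these genes. Of 39 such markers tested, 0 were higher and 4 lower, 10.3% beside the 13.2% of all tested entries called in either direction. By direction, 5.47% of all tested entries were called lower and 7.7% higher, while every call among the markers was lower. Of 9 endothelial markers 2 fell, Kdr (log2 fold change -0.45, edgeR adjusted p = 0.00918; called in all 25 alternatives) and Tek (-0.49, adjusted p = 0.0265; lost in 5 of 25). The rest of that list was mixed and did not pass, and its genes are named here with their values known. Stab1 (0.23), Lyve1 (0.42) and Clec4g (0.25) had positive log2 fold changes. Those of Stab2 (-0.18), Pecam1 (-0.31), Cdh5 (-0.3) and Tie1 (-0.38) were negative, and the list median was -0.3. Of the 9 endothelial markers, 5 had an unadjusted p under 0.05 by edgeR, beside 29.7% of all tested entries. The summed level of the 9 markers was 151 to 219 CPM in emodin livers and 152 to 231 CPM in vehicle livers. The 6 markers of the central vein endothelium, Rspo3 among them, summed to 15.4 to 30.7 CPM in emodin livers and 17.3 to 33 CPM in vehicle livers, and the 5 other than Rspo3 did not pass. Of 9 stellate cell markers 1 fell, Rgs5 (-0.72, edgeR adjusted p = 0.0332; lost in 10 of 25 alternatives), with a median of -0.39. Of the 8 macrophage, 5 cholangiocyte and 2 tested neutrophil markers, edgeR called 0, with 1 cholangiocyte marker (Sox9) at an unadjusted p under 0.05. Of 6 tested hepatocyte markers Alb fell (-0.5, edgeR adjusted p = 0.0309; lost in 8 of 25) and Fgb, a fibrinogen gene, rose (0.6, adjusted p = 0.0354; lost in 10 of 25 and 0.36 at its lowest). The part of these cell types in the levels of Lgr5, Nkd1, Znrf3, Rspo3 and Wls was not tested.

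Genes of both ends of the lobule were set beside the 10 genes. Of 20 other pericentral genes edgeR called 0, with 4 at an unadjusted p under 0.05 and a median log2 fold change of -0.03. Among those 4, Slc13a3 (0.68) and Slc22a3 (0.45) had positive log2 fold changes and Rgn (-0.24) and Aldh1a1 (-0.27) negative ones. Cyp2e1 and Cyp1a2, P450 enzymes of the wider pericentral zone picked here for their role, averaged 7470 and 733 CPM in emodin livers and 8100 and 759 CPM in vehicle livers (edgeR adjusted p = 0.743 and 0.903). Slc13a3 had the smallest p of these (log2 fold change 0.68, edgeR adjusted p = 0.0652). It was called by DESeq2 (adjusted p = 0.0282) and without emodin 1, emodin 3, emodin 6 or vehicle 7 (log2 fold changes 0.76 to 0.81), while array weights gave 0.33 (adjusted p = 0.316). Of 20 periportal genes, Arg1 (log2 fold change 0.38, edgeR adjusted p = 0.0123), Apof (0.49, 0.0139) and Asl (0.66, 0.0145) rose and Aldh1b1 (-0.69, 0.0223) fell. The 3 rises were called in all 25 alternatives and the fall in 24 of 25; 3 of 20 higher and 1 of 20 lower stand beside 7.7% and 5.47% of all tested entries. Arg1 and Asl code for enzymes of the urea cycle, of which Cps1 (log2 fold change -0.0, edgeR adjusted p = 0.986) and Ass1 (-0.08, adjusted p = 0.843), on the same list and picked after their values were seen, did not pass.

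**Figure D3:**
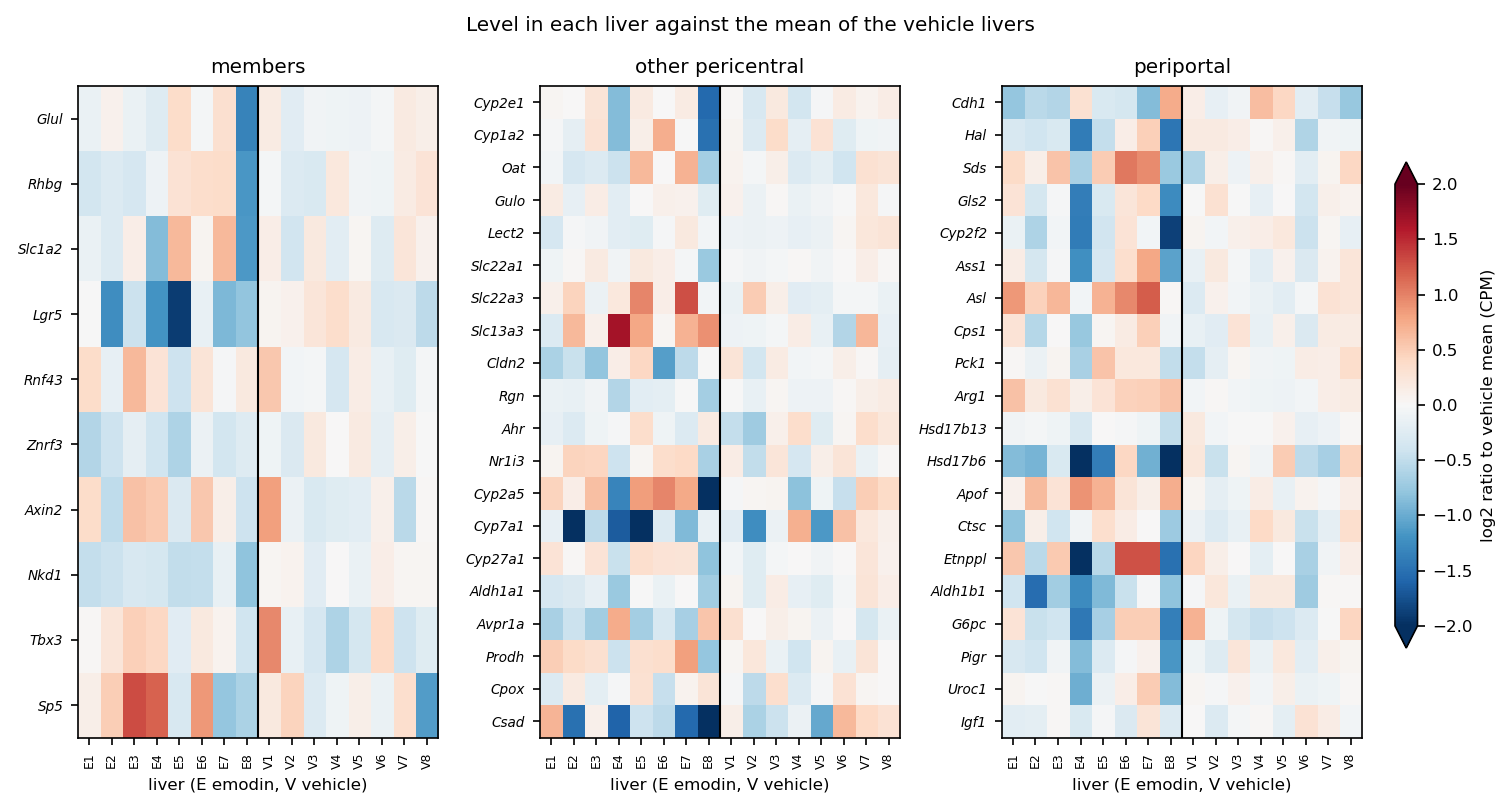
Log2 ratio of CPM in each liver (x axis, emodin 1 to 8 left of the line, vehicle 1 to 8 right of it) to the mean of the vehicle livers, for the 10 genes, 20 other pericentral genes and 20 periportal genes (rows). Emodin 4 and emodin 8 are low for most genes of both zones, while Lgr5 is low in most emodin livers and lowest in emodin 5.

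Liver by liver, emodin 8 had 5 of the 10 genes below every vehicle liver and a median log2 ratio to the vehicle mean of -0.71. All 3 metabolic genes were below every vehicle liver there, with a median of -1.17. In the same liver 12 of 20 other pericentral and 15 of 20 periportal genes were below every vehicle liver, so low values were found at both ends of the lobule. Emodin 4 had 5 of the 10 genes, 12 of 20 other pericentral and 15 of 20 periportal genes below every vehicle liver. Each vehicle liver was set against the other vehicle livers in the same way. The most genes below were 3 of the 10 and 8 of 20 other pericentral genes, both in vehicle 2. For periportal genes the most was 10 of 20, in vehicle 6. The share of all tested entries below every vehicle liver was not counted for single livers. The counts are therefore not read as particular to these lists. Emodin 5 and emodin 7 had all 3 metabolic genes above every vehicle liver (median log2 ratio 0.37 in each), and emodin 5 was also the liver with the least Lgr5. In limma's fit with array weights, emodin 8, 4 and 5 received the lowest weights of all libraries, at 0.276, 0.376 and 0.455. Under that fit Nkd1 and Znrf3 stayed called, while Lgr5 had a log2 fold change of -0.53 (adjusted p = 0.0969).

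**Figure D4:**
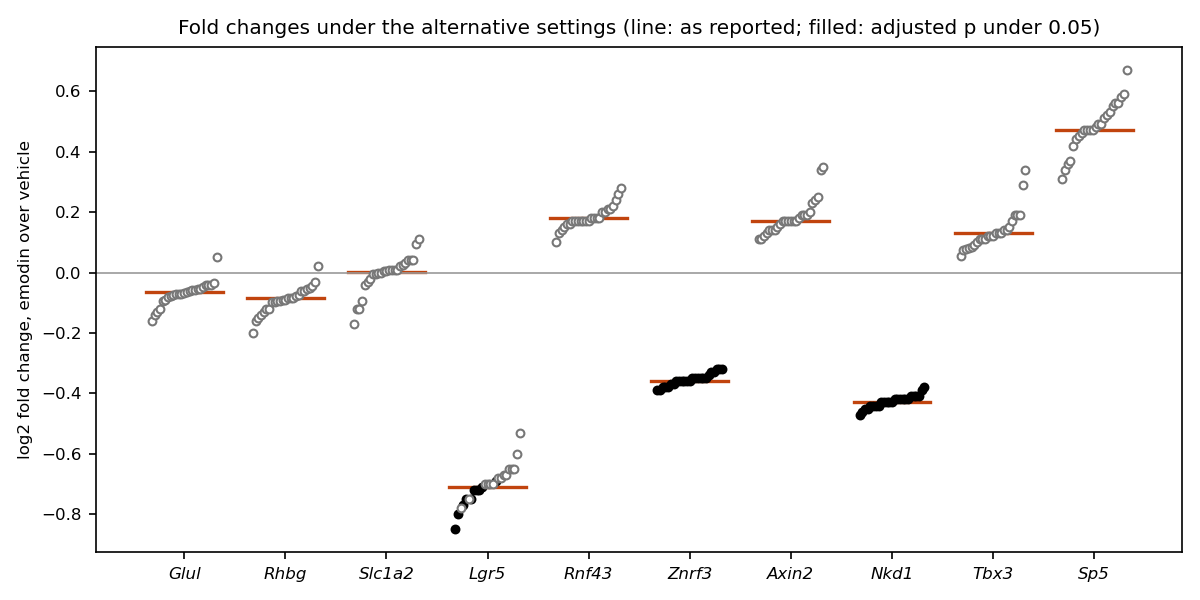
Log2 fold change, emodin over vehicle (y axis), of the 10 genes (x axis) as reported (line) and under each of 25 alternative settings (24 for Sp5; points, filled where the adjusted p was under 0.05). Nkd1 and Znrf3 stay filled throughout, Lgr5 is filled in part, and the remaining genes are open in all settings.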

How the data were processed

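Liver RNA was sequenced in 8 emodin and 8 vehicle libraries, each from 1 µg of total RNA. The values deposited by the authors are estimated counts, judged from the numbers themselves, although the table is named for FPKM: 0 values were not whole, totals were 28.3 M to 48.2 M, and no scaling was evident. In every library at least 632 entries had the value 2 and at most 207 the value 1, so a value need not be a number of reads. Per the submitters' processing notes, the tools were HISAT2, HTSeq 0.6.1, Cufflinks 2.2.1, SAMtools 0.1.19 and cutadapt 1.9.1 and the build was mm10, with no roles given. All 16 columns were used.

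The 10 genes were found by symbol. All entries, the 5613 without an Ensembl ID included, went into edgeR 4.0.16 (R 4.3.3; filterByExpr, TMM factors 0.929 to 1.16, robust quasi-likelihood F test, group alone), with Benjamini-Hochberg adjustment over all 14308 tested entries. The counts were already whole, so rounding changed nothing. The SE was the size of the log2 fold change over √F. Log2 CPM used a prior count of 2. The script was tested on simulated data.

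Single values were compared by exact permutation over 12870 assignments. Alternatives used other scalings and filters, DESeq2 1.42.0, limma 3.58.1 with array weights, a replicate block and each liver left out. Leaving out both livers with titin reads was added after seeing the data. Positions and exon lengths come from GENCODE M21, which held 21779 of the 21833 Ensembl IDs, and promoter windows from RefSeq. The rule for the 10 genes uses no measured value, but these genes, the 14 lists of other genes and the tests were chosen with earlier results of these data known. Named were all 10 genes, up to 4 called genes per list by smallest p (2 uncalled ones where none was called), and the 5 genes most like Glul and most like the mean of the 10. Other named genes were picked for their role. Without molecular identifiers, the number of counts by itself may understate the error, which was not measured, and all tests use the spread between livers.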

Additional observations from a re-analysis of the deposited data

Results flagged for a closer look

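In 74 groups of 8 livers, the gap between the extreme liver and its nearest neighbour, as a share of the range, was compared with Dixon's critical value of 0.526, and 8 groups exceeded it. Chance alone flags about 1 in 20 groups. Among the 10 genes, Rnf43 was at 16.5 CPM in vehicle 1, with the next vehicle liver at 12.5 CPM, and Axin2 was at 10.1 CPM in the same liver, with the next at 6.12 CPM. Without vehicle 1 the log2 fold change of Axin2 was 0.35 (edgeR adjusted p = 0.214).

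Among the other genes, Slc13a3 was at 33.1 CPM in emodin 4, with the next emodin liver at 19.8 CPM. Sfrp1 was at 1.78 CPM and Rgs5 at 88.0 CPM in vehicle 2, with the next vehicle livers at 0.805 and 48 CPM. C1qa was at 59.5 CPM and C1qb at 57.8 CPM in vehicle 4, with the next at 31.9 and 29.9 CPM. Aldh1b1 was at 35.3 CPM in vehicle 6, with the next higher vehicle liver at 53.0 CPM.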

How the results depend on the processing

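Of 37 named genes, 16 kept their call and direction in all 25 alternatives and 4 more in the 24 that gave them a value; of the 18 called ones, 7 kept the call in all. Nkd1 and Znrf3 kept it throughout, with adjusted p of at most 0.0484 and 0.0406. Lgr5 kept its direction but lost its call in 15, among them no filter on low counts, array weights, the replicate block, the livers with titin reads left out, and 11 of the 16 single livers left out (log2 fold changes -0.75 to -0.60 and adjusted p 0.0541 to 0.0863 in those 11); the cause was not tested. The number of the 10 genes called lower was 2 to 3 with a liver left out. Sp5 gave no value under a minimum of 1 CPM in 8 livers.

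Over all entries, leaving out single livers gave 709 (without emodin 4) to 1333 entries called higher and 521 (without emodin 2) to 903 called lower. The replicate block gave 628 called higher and 635 called lower, and 9 of the 18 called genes lost their call under it (Lgr5, Wls, Wnt5b, Fzd6, Bcl9, Aldh1b1, Alb, Fgb and Rgs5, adjusted p 0.0626 to 0.0881). Livers with the same number had correlations of their deviations between -0.149 and 0.245, and 2 of 8 emodin livers correlated best with their own number, so the numbers are not taken as pairs.

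With single livers left out, the log2 fold change of Glul was -0.14 to 0.05 and that of Rhbg -0.16 to 0.021, both positive without emodin 8 alone. That of Slc1a2, near 0 as reported, was -0.0011 with median-of-ratios scaling, -0.0054 with the stricter filter, -0.095 with the replicate block, -0.17 without the livers with titin reads, and -0.12 to 0.11 with single livers left out. Counts were fewest for Sp5 (12 to 76 per liver) and most for Glul (17817 to 53645).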

Other observations

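The genes whose log2 CPM was most like that of Glul over the 16 livers, out of 10638 annotated genes ranked, were Itm2b (Pearson r = 0.93), Tmem59 (0.9), Cyp2j9 (0.9), Tmem183a (0.89) and Cyp2c37 (0.88). Without emodin 8, the liver with the least Glul, the same genes had r = 0.71, 0.6, 0.61, 0.7 and 0.58 over 15 livers. None of them passed the test of emodin against vehicle (edgeR adjusted p from 0.263 to 0.621).

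For the mean standardised level of the 10 genes, the most alike were Ggact (r = 0.86), Zfp383 (0.86), Slc17a5 (0.83), Atg101 (0.83) and Mib2 (0.83), with r of 0.68, 0.69, 0.64, 0.7 and 0.6 without emodin 8. These correlations describe livers of both groups together and carry no test.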
